A study of Mus musculus with 18 samples.

Results

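The genes described here are Myc, its paralogs Mycn and Mycl, the Myc partner Max, the Max-binding repressor Mxd4, and 32 genes known as Myc targets that act in the nucleolus, in ribosome assembly, in translation and in nucleotide or polyamine synthesis. They were chosen by name, 37 of the 23337 gene symbols counted in mouse mammary glands. The protein Cip2a is known to stabilise Myc. Every one of the 37 had counts and passed the filter on low counts. By role they comprise 5 genes of the Myc family and its partners, 8 of the small nucleolar ribonucleoproteins and nucleolar phosphoproteins, 4 of ribosomal RNA (rRNA) transcription and small subunit processing, 9 of large subunit assembly, 3 of translation initiation, 6 of nucleotide and polyamine synthesis, and the chaperonin subunit gene Cct2 with the nuclear transport GTPase gene Ran.

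Myc is a transcription factor that binds DNA as a dimer with Max, most often at the sequence called the E-box, while proteins of the Mxd family compete for Max and repress the same kind of site. Many genes that make ribosomes are Myc targets: RNA polymerase I copies the rRNA genes, guide RNA-protein complexes modify the transcript, and assembly factors cut and fold it into both subunits. Cip2a inhibits the phosphatase PP2A, which otherwise favours the breakdown of Myc protein, and ribosome production in the mammary gland is high when epithelium grows. RNA counts do not measure Myc protein.

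The 18 libraries came from whole mammary glands, lymph nodes left out, of C57BL/6Jx129 mice that were Cip2a-/- (germ-line status and allele not described further) or wild type (WT). There were 6 groups of 3 libraries: Cip2a-/- untreated and WT untreated glands, Cip2a-/- and WT glands taken 2 weeks after the last dose of the carcinogen DMBA (7,12-dimethylbenz[a]anthracene), and Cip2a-/- and WT endpoint glands. Treated mice got 6 weekly gavages of 1 mg DMBA in oil, the first at an age of 12 to 14 weeks. Endpoint glands were free of tumour and came from mice killed because DMBA had caused a tumour somewhere in the body. No oil-only group was analysed here, and the ages of untreated and endpoint mice were not stated, so DMBA, oil, age and time cannot be told apart. No source used here says how mice were paired or housed, and p-values measure the spread between these libraries.

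Total counts ran from 16121743 to 24586404 per library, which puts every one of the genes except Mycn at over 5 CPM (reads scaled to a common library size). Cip2a itself, listed as C330027C09Rik, had 2, 0 and 0 reads in all in Cip2a-/- untreated, 2-week and endpoint glands, against 86, 203 and 202 reads in the WT glands of the same conditions. Summed epithelial markers were at 559 to 3799 CPM in 17 libraries and at 28.3 CPM in WT endpoint library 1, which also held the most B cell marker RNA (1916 CPM) and brown fat marker RNA (8461 CPM). Skeletal muscle markers summed to 17.1 to 61530 CPM, highest in Cip2a-/- 2-week library 1 and next in WT endpoint library 1. Lymph node stroma markers summed to 1.23 to 719 CPM, highest in WT endpoint library 1 and next in Cip2a-/- endpoint library 1 (588 CPM). Whether node tissue remained in some glands was not tested. The column headers carry a number of unstated meaning that is 5144 or more in the 2-week libraries and 5023 or less in all others. Whatever it stands for cannot be told apart from time or DMBA in comparisons of 2-week glands with endpoint or untreated glands. In whole tissue, fewer cells of a type and less RNA per cell cannot be told apart.

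**Figure D1:**
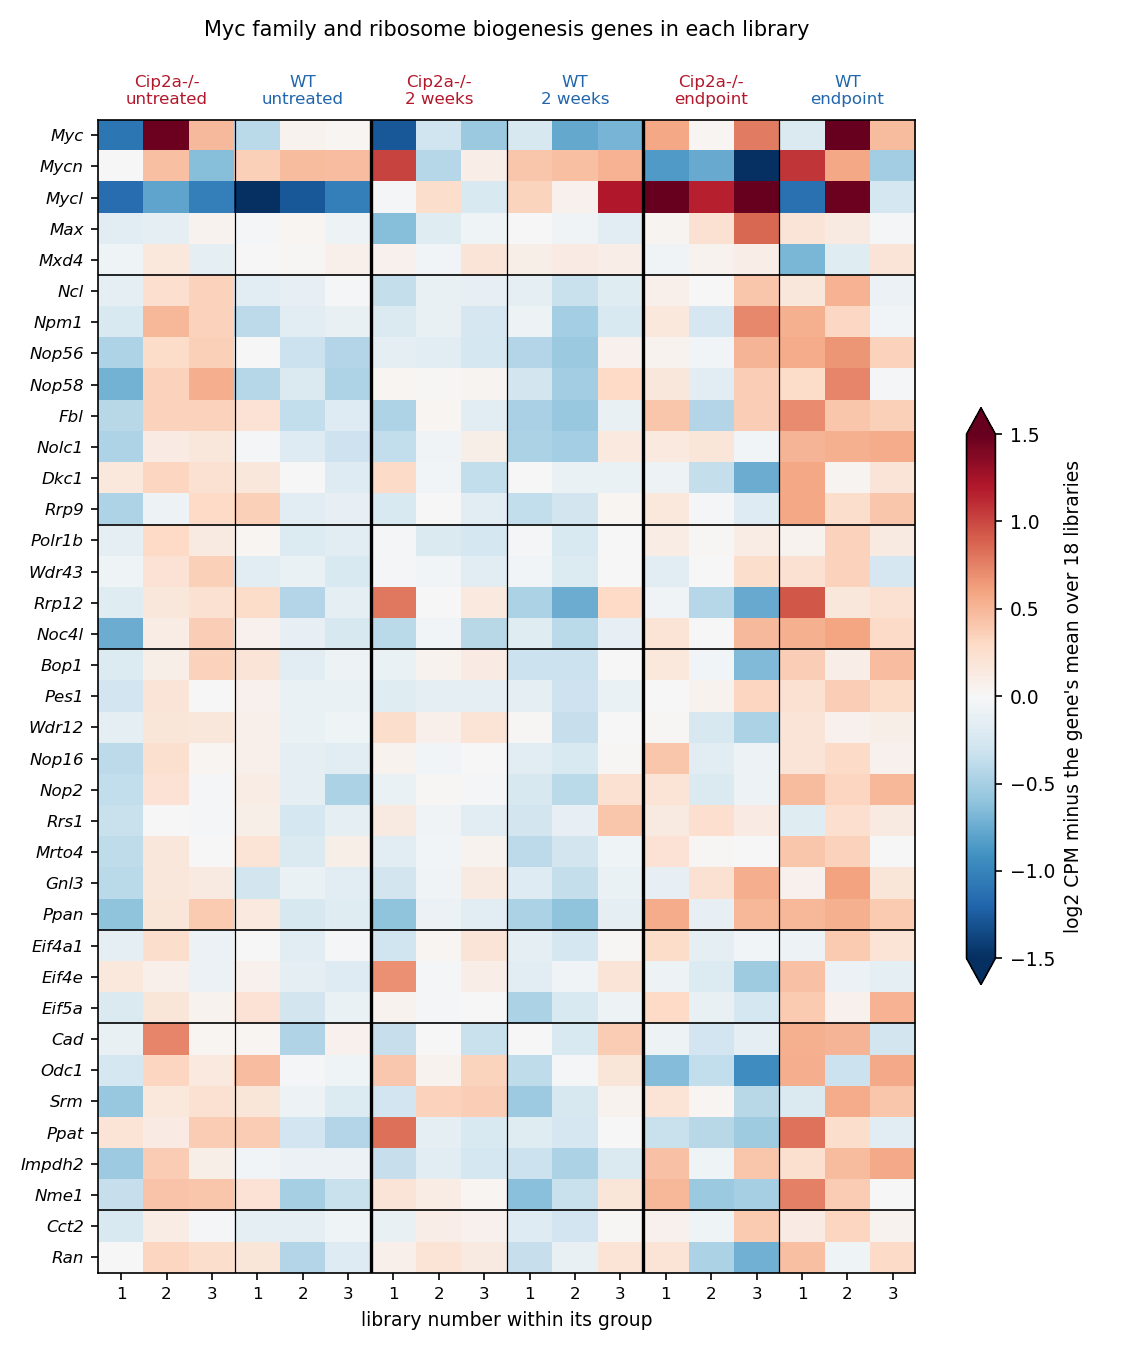
Each row is 1 of the 37 genes, grouped by role (black lines), and each column 1 library; colour is log2 CPM minus the gene's mean over the 18 libraries. Mycl is low in all 6 untreated libraries and high in 4 of the 6 endpoint libraries, most nucleolar and assembly genes are pale blue at 2 weeks and red in the WT endpoint libraries, and Cip2a-/- untreated library 1 is low for most rows.

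More of these genes were called between times after DMBA than between genotypes, and the same held for all genes tested. Of all genes, 13.4% were called between the endpoint and 2 weeks, and 0% to 0.00646% between genotypes. At the endpoint, 9 of the 37 genes had risen relative to 2 weeks after DMBA, averaged over the genotypes, and 0 had fallen (edgeR quasi-likelihood test, Benjamini-Hochberg adjusted p under 0.05 over 15482 genes). The 9 are 24.3% of the 37, where 6.41% of all genes tested rose and 6.94% fell (13.4% together). They were Myc and Max, the nucleolar genes Fbl, Nop56 and Nolc1, the assembly genes Noc4l, Pes1 and Ppan, and Impdh2, an enzyme of guanine nucleotide synthesis. Of the 37 log2 fold changes 29 were positive (78.4%, against 53.6% of all genes), and their median was 0.25, against 0.049 over all genes tested.

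Myc (chromosome 15, 61985341 to 61990361, mouse build GRCm38.p6) had 57.5, 39.2 and 66.1 CPM in Cip2a-/- endpoint glands and 32.9, 118 and 53.3 CPM in WT endpoint glands. At 2 weeks it had 15.9, 31.1 and 26.2 CPM in Cip2a-/- glands and 32.5, 22.6 and 23.6 CPM in WT glands. Every endpoint library was above every 2-week library, by a narrow margin for WT endpoint library 1, and the genotypes overlapped at both times. The log2 fold change was 1.26 ± 0.37 (SE; adjusted p = 0.0393, edgeR quasi-likelihood test). Max, which encodes the obligate partner of Myc, had 81.7, 92.7 and 145 CPM in Cip2a-/- endpoint glands and 90.4, 87.2 and 78.6 CPM in WT endpoint glands, against 51.1, 69.8 and 76.1 CPM in Cip2a-/- and 78.8, 76.2 and 70.5 CPM in WT glands at 2 weeks. The highest 2-week value of Max, in a WT gland, was just above its lowest endpoint value, also in a WT gland, and Cip2a-/- endpoint library 3 stood far above all others. Its log2 fold change was 0.44 ± 0.13 (adjusted p = 0.0446, edgeR).

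The other family members did not pass this test. Mycl, the paralog first found amplified in lung cancer, had a log2 fold change of 0.80 ± 0.35 (adjusted p = 0.14, edgeR). Mxd4, the Max-binding repressor, had -0.16 ± 0.12, with 45.6 to 83.3 CPM at the endpoint and 71.1 to 83.9 CPM at 2 weeks. Mycn, the paralog active in the embryo, was near the detection limit in every library, at 0.166 to 2.28 CPM.

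**Figure D2:**
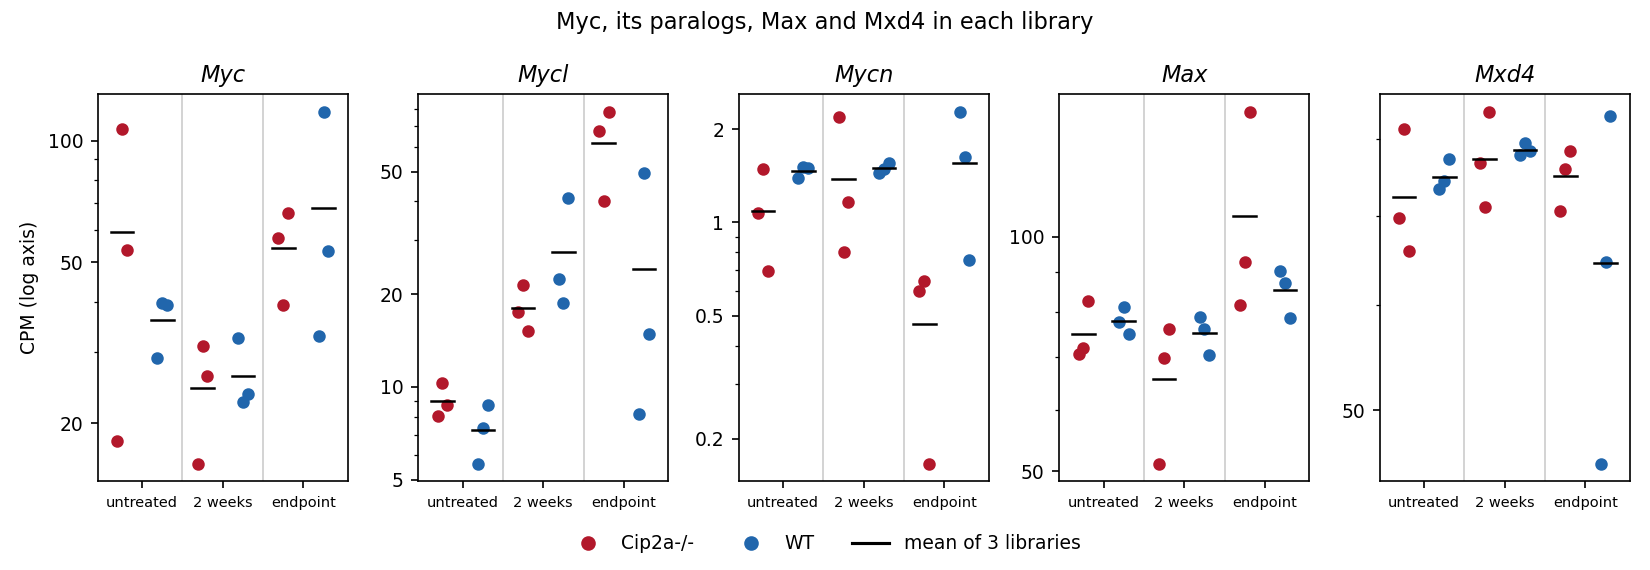
CPM on log axes for 5 genes, 1 panel per gene; each point is 1 library, bars are means of 3, Cip2a-/- is left of WT within each condition. Myc is lowest at 2 weeks, Mycl climbs over the conditions in Cip2a-/- glands and scatters from 8.17 to 49.4 CPM in WT endpoint glands, and Max stands out high in Cip2a-/- endpoint library 3 and low in Cip2a-/- 2-week library 1, at 145 and 51.1 CPM.

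In the small nucleolar ribonucleoprotein and nucleolar phosphoprotein group, 3 of 8 genes rose at the endpoint and the other 5 were not called. Fbl, the methyltransferase of the box C/D particles that methylate rRNA, had 25.9 to 57.5 CPM at the endpoint (median 46.1, n = 6) and 23.8 to 35.8 CPM at 2 weeks (median 28.4). Nop56, a core protein of the same particles, had 58.2 to 95.4 CPM (median 80.8) at the endpoint and 40.9 to 62.9 CPM (median 52.0) at 2 weeks. Both genes overlapped between the times, and Cip2a-/- endpoint library 2 held the lowest endpoint value of each. For Fbl it was the only endpoint library in the overlap, for Nop56 it was not. The log2 fold changes were 0.61 ± 0.18 for Fbl (adjusted p = 0.0403, edgeR) and 0.59 ± 0.16 for Nop56 (adjusted p = 0.0266, edgeR).

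Nolc1, a nucleolar chaperone of small nucleolar particles, had 63.3 to 95.5 CPM (median 83.3) at the endpoint and 45.9 to 71.8 CPM (median 56.7) at 2 weeks, a log2 fold change of 0.49 ± 0.14 (adjusted p = 0.0341, edgeR). Its 3 WT endpoint libraries, at 92.6, 94.3 and 95.5 CPM, were above the 3 Cip2a-/- endpoint libraries, at 71.9, 73.9 and 63.3 CPM. Ncl, which encodes nucleolin, was higher in every endpoint library (297 to 452 CPM) than in any 2-week library (247 to 293 CPM) but missed the threshold, with 0.40 ± 0.13 (adjusted p = 0.0561, edgeR). Npm1, which encodes nucleophosmin, had 0.50 ± 0.17 (adjusted p = 0.0682, edgeR). Nop58, the partner of Nop56, had 0.30 ± 0.20, and Rrp9, a U3 particle protein, had 0.37 ± 0.14, neither called. Dkc1, the pseudouridine synthase of the box H/ACA particles, had 25.8, 21.2 and 16.2 CPM in Cip2a-/- and 40.4, 28.0 and 30.9 CPM in WT endpoint glands, against 33.1, 26.4 and 21.0 CPM in Cip2a-/- and 27.2, 25.4 and 25.4 CPM in WT glands at 2 weeks.

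In rRNA transcription and small subunit processing, Noc4l, a factor of small subunit assembly and export, rose and the other 3 genes did not pass. Noc4l had 34.1, 29.9 and 41.7 CPM in Cip2a-/- and 43.1, 45.0 and 36.3 CPM in WT endpoint glands, against 22.5, 28.9 and 22.2 CPM in Cip2a-/- and 26.3, 22.4 and 27.3 CPM in WT glands at 2 weeks. Every endpoint library was above every 2-week library, and the log2 fold change was 0.62 ± 0.16 (adjusted p = 0.0263, edgeR). Polr1b, the second-largest subunit of RNA polymerase I, was also above in every library, with 27.4 to 34.2 CPM against 22.6 to 27.1 CPM, and had 0.25 ± 0.099 (adjusted p = 0.103, edgeR). Wdr43, a small subunit processome protein, had 0.17 ± 0.11. Rrp12, known from yeast as a factor of subunit maturation and export, had -0.0062 ± 0.22.

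In large subunit assembly, 2 of 9 genes rose. Pes1 encodes the scaffold of the PeBoW complex, which also holds Bop1 and Wdr12 and is needed to process the large subunit rRNA. Pes1 had 73.6, 76.0 and 91.1 CPM in Cip2a-/- and 85.5, 94.3 and 88.2 CPM in WT endpoint glands, against 64.6, 66.2 and 66.6 CPM in Cip2a-/- and 66.1, 58.9 and 68.3 CPM in WT glands at 2 weeks. The times did not overlap, and the log2 fold change was 0.38 ± 0.092 (adjusted p = 0.0189, edgeR). Its partners gave 0.18 ± 0.14 for Bop1 and -0.093 ± 0.11 for Wdr12, neither called, and whether the 3 partners differ from each other was not tested.

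Ppan, an assembly factor of the large subunit, had 59.5, 37.1 and 57.1 CPM in Cip2a-/- and 57.0, 58.4 and 53.3 CPM in WT endpoint glands, against 26.7, 37.9 and 36.1 CPM in Cip2a-/- and 29.0, 26.7 and 36.9 CPM in WT glands at 2 weeks. In all, 5 of the 6 endpoint libraries were above every 2-week library, and Cip2a-/- endpoint library 2 lay among the 2-week values. The log2 fold change was 0.74 ± 0.17 (adjusted p = 0.0168, edgeR). Gnl3, which encodes nucleostemin, had 0.40 ± 0.14 (adjusted p = 0.0726, edgeR). The other 5 genes of the group, Mrto4, Nop2, Nop16, Rrs1 and Bop1, had log2 fold changes between 0.12 and 0.32 and were not called.

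Among the genes outside the nucleolus, Impdh2 was the only one called among 11. Impdh2, the rate-limiting enzyme of guanine nucleotide synthesis, had 92.9, 65.3 and 91.1 CPM in Cip2a-/- and 80.8, 95.0 and 102 CPM in WT endpoint glands, against 53.9, 60.9 and 57.1 CPM in Cip2a-/- and 54.5, 49.4 and 58.6 CPM in WT glands at 2 weeks. No endpoint library reached down to the 2-week values, and the log2 fold change was 0.65 ± 0.14 (adjusted p = 0.0117, edgeR). The other nucleotide and polyamine genes lay between -0.27 ± 0.18 for Odc1, the first enzyme of polyamine synthesis, and 0.21 ± 0.23 for Nme1, a nucleoside diphosphate kinase. Eif4e, the cap-binding protein of translation initiation, had -0.23 ± 0.14, Eif4a1, its helicase partner, 0.18 ± 0.13, and Eif5a, the hypusine-bearing elongation and initiation factor, 0.29 ± 0.14. Counts of Npm1, Eif4a1, Eif5a, Ran, Cct2 and of Nme1 beside Nme2 are uncertain, since near-identical copies in the genome may share their reads.

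**Figure D3:**
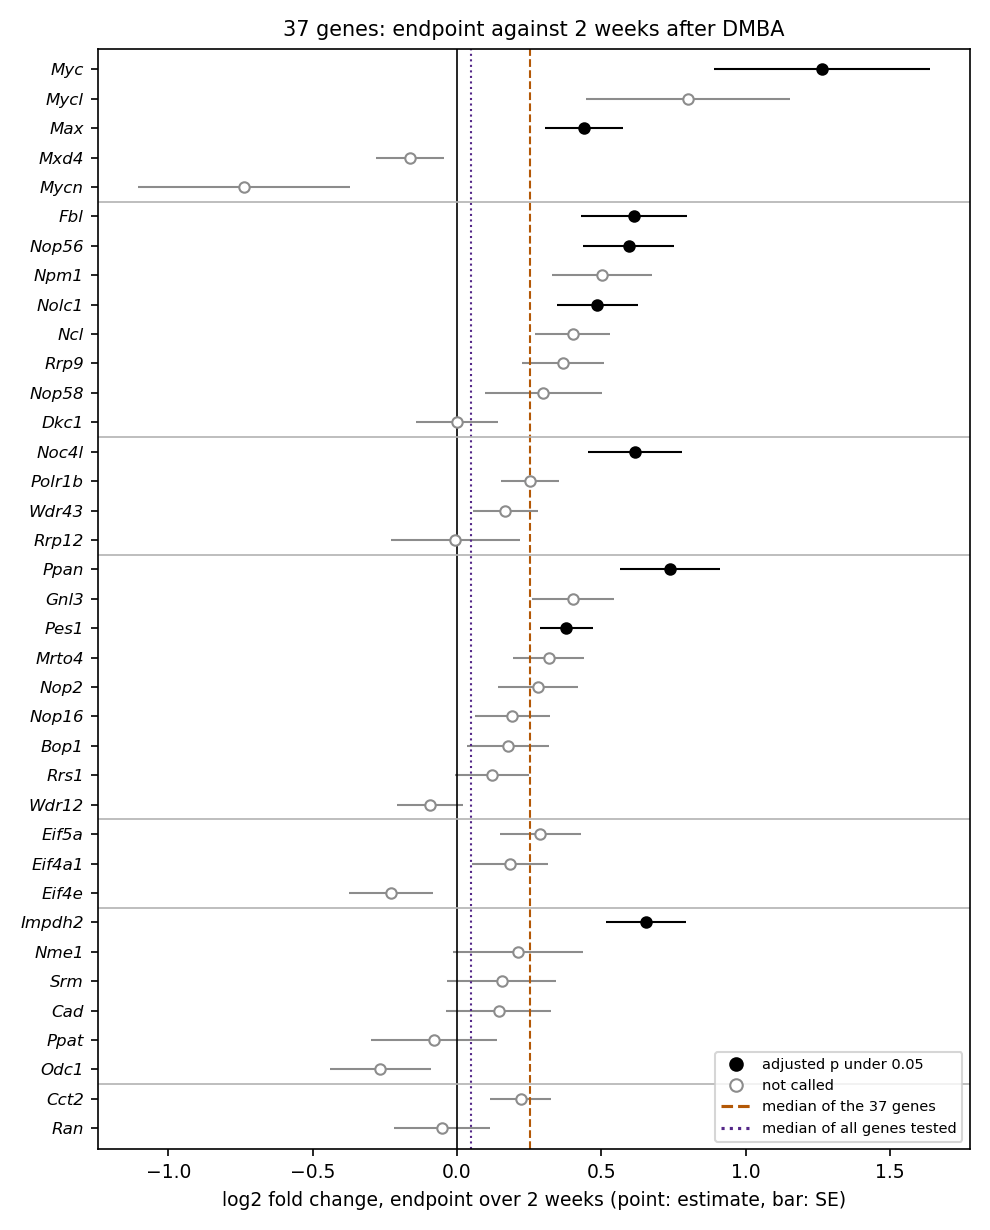
Log2 fold change of the endpoint over 2 weeks for each of the 37 genes, grouped by role, with its SE; filled points passed the test. The 9 called genes lie between 0.38 and 1.26, the dashed line is the median of the 37 genes (0.25) and the dotted line that of all genes tested (0.049).

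Of the 37 genes, 6 (16.2%) were higher in every endpoint library than in every 2-week library, Myc, Ncl, Polr1b, Noc4l, Pes1 and Impdh2, against 2.67% of all genes tested, and 0 were lower in every library, against 3.49%. At an unadjusted p under 0.05, 16 genes (43.2%) were higher, against 15.6% of all genes, and 0 were lower, against 14.6%. Beside this, summed cell cycle markers were at 166, 74.2 and 204 CPM in Cip2a-/- and 308, 251 and 201 CPM in WT endpoint glands, against 153 to 180 CPM in Cip2a-/- and 135 to 145 CPM in WT glands at 2 weeks. None of these 10 markers was called at the endpoint against 2 weeks, though all 10 had positive log2 fold changes (median 0.37). The 8 B cell markers and the 8 T cell markers also had positive values throughout (medians 2.47 and 0.67), as did the 4 of 6 lymph node stroma markers that were tested (2.97, 1 called higher) and 5 of 6 brown fat markers (1.07, 1 called higher), while 0 of 8 skeletal muscle markers did (-2.16) and 1 of 8 macrophage markers was called lower. B cell markers summed to 5.32 to 39.5 CPM in Cip2a-/- and 4.49 to 1916 CPM in WT endpoint glands, against 1.23 to 241.8 CPM in Cip2a-/- and 3.87 to 5.30 CPM in WT glands at 2 weeks, where Ms4a1, Cr2 or Pax5 was at 0 in some libraries. Muscle markers summed to 17.1 to 329 CPM in Cip2a-/- and 20.3 to 39190 CPM in WT endpoint glands, against 75.1 to 61530 CPM in Cip2a-/- and 154 to 6345 CPM in WT glands at 2 weeks. Epithelial markers had 6 of 8 positive values (median 0.59) and endothelial markers 5 of 6 (0.53), none called. White fat markers had 2 of 8 (-0.071), none called. Epithelial markers summed to 1419 to 3799 CPM in Cip2a-/- and 28.3 to 3547 CPM in WT endpoint glands. At 2 weeks they summed to 895 to 1524 CPM in Cip2a-/- and 1596 to 2894 CPM in WT glands. The part of these cell types in the result was not tested. The endpoint also had shorter, more GC-rich genes among its risen ones: those called higher over all genes had a median coding length of 1173 bp and a coding GC content of 56.7%, those called lower 1950 bp and 49.4%, and the 9 genes here 1542 bp and 54.3%. The medians were 1389 bp and 53.3% over all genes tested with a length, and 1384.5 bp and 51.2% for the 28 genes here not called.

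DESeq2 called 14 of the 37 genes higher, the same 9 with Gnl3, Mrto4, Ncl, Npm1 and Polr1b, and it also called more of all genes, 1715 higher and 1541 lower, against 992 and 1075 with edgeR. Impdh2 and Ppan were called under each of 20 settings, Pes1 under 19, Nop56 under 15, Noc4l under 14, Nolc1 under 11, Myc under 10, Max under 7 and Fbl under 6. The count was 3 without WT 2-week library 1, 2 without WT 2-week library 2, 3 without Cip2a-/- 2-week library 1, 4 without Cip2a-/- endpoint library 3, and 4 without Cip2a-/- 2-week library 1 and WT endpoint library 1 together. In the same fits 563, 427, 530, 519 and 902 of all genes were called higher. With the trend on coding length and GC content removed, 12 genes were called, 6 of them among the 9. Myc then had 1.14 (adjusted p = 0.0589, edgeR, with 0.00636 to 0.091 over all alternatives), and Fbl and Max were not called either. That correction also turned the split of all called genes to 1008 higher and 558 lower (64.4% higher), against 992 and 1075 (48.0%) without it.

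The promoters of the 37 genes were searched for the E-box that Myc and Max bind, CACGTG, which reads the same on both strands, so that each match was counted once. The windows were those of RefSeq for GRCm38.p6, 250 bases before to 50 bases after each listed start, and 30 of the genes had an entry. The motif stood in a window of 11 of these 30 genes (36.7%), against 8.09% of all genes in that table and 11.1% of the genes tested here. By window the share was 14 of 40 (35.0%), against 7.15% over the table. Among the 9 genes that rose, 7 had an entry and 3 of these held the motif, Max, Pes1 and Impdh2, while 8 of the 23 others with an entry held it. The genes were chosen as Myc targets, so the share describes the choice, and a match is not a bound site. The windows of those 3 genes, and for contrast that of Ppan, which rose most after Myc and has no such motif, are printed with CACGTG in capitals, at chr12:76962199-76962498 (minus strand, Max), chr11:3963725-3964024 (plus strand, Pes1), chr9:108560186-108560485 (plus strand, Impdh2) and chr9:20887925-20888224 (plus strand, Ppan).
Max: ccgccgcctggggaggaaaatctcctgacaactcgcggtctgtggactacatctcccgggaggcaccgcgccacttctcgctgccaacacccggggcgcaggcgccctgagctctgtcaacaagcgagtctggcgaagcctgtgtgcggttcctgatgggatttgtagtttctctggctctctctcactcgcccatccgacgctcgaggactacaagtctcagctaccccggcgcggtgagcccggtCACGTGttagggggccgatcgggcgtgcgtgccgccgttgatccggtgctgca
Pes1: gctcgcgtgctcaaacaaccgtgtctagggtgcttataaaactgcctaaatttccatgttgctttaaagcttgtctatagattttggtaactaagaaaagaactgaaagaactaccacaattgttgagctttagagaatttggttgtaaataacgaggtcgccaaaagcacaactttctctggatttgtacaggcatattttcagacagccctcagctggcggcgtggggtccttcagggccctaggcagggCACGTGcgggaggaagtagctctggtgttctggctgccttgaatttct
Impdh2: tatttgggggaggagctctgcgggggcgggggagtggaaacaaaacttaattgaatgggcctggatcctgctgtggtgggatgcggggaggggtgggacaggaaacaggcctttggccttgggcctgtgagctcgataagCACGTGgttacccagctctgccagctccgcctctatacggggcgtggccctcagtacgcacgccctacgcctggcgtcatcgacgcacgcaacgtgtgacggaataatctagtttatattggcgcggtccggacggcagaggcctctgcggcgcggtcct
Ppan: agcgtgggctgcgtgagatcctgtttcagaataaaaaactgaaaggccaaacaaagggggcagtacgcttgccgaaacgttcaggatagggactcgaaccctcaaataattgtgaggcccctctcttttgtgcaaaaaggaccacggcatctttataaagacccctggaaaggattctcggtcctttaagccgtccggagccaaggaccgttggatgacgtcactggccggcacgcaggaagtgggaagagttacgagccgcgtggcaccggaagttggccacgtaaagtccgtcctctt

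In Max the first base of the E-box lay 3 bases before the listed start, and in Impdh2 110 bases before it. In Pes1 it was base 3, with the start counted as base 1. The other genes with a match were Eif4e, Mxd4, Ran, Nop2, Eif4a1, Eif5a, Nme1 and Wdr43, of which none was called, apart from Wdr43 at the endpoint against 2 weeks once the trend on coding length and GC content was removed.

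Against untreated glands, Mycl was the gene of the 37 that stood out. It rose at the endpoint, the only 1 of the 37 called there (2.70%, where 0.0258% of all genes rose and 0.226% fell), and it was higher in every 2-week library than in every untreated library without passing the test. Mycl, on chromosome 4 (122995588 to 123002490, GRCm38.p6), had 8.07, 10.3 and 8.74 CPM in Cip2a-/- untreated glands and 5.64, 7.37 and 8.75 CPM in WT untreated glands. At 2 weeks it had 17.5, 21.4 and 15.2 CPM in Cip2a-/- and 22.4, 18.7 and 41.1 CPM in WT glands. At the endpoint it had 67.5, 39.98 and 78.2 CPM in Cip2a-/- glands, all above any untreated or 2-week Cip2a-/- gland, and 8.17, 49.4 and 14.8 CPM in WT glands, of which library 1 lay within the untreated range.

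The log2 fold change of Mycl was 2.26 ± 0.37 at the endpoint against untreated (adjusted p = 0.0286, edgeR quasi-likelihood test) and 1.46 ± 0.36 at 2 weeks against untreated (adjusted p = 0.317 with edgeR and 0.0151 with DESeq2, within 0.0151 to 0.951 over all alternatives). The endpoint call was lost without any 1 of the 6 untreated libraries, without Cip2a-/- endpoint library 3, and when the fit held the 4 compared groups only, where the adjusted p was 0.129, the highest of the alternatives (lowest 7e-07). The log2 fold change stayed between 1.72 and 2.46. Beside it, the 8 epithelial markers were not called in this comparison. Their sum was 3630, 1419 and 3799 CPM in Cip2a-/- and 28.3, 3547 and 614 CPM in WT endpoint glands, against 640 to 1522 CPM in Cip2a-/- and 559 to 1387 CPM in WT untreated glands. The sum and Mycl ranked the endpoint libraries in the same order. Cip2a-/- endpoint library 2 and WT endpoint library 3 had sums within the untreated range, with Mycl above it. Per 1000 CPM of epithelial markers, Mycl was at 18.6, 28.2 and 20.6 CPM in Cip2a-/- endpoint glands and at 13.9 and 24.2 CPM in WT endpoint libraries 2 and 3. The ratio was 11.5 to 16.9 in Cip2a-/- and 11.7 to 14.2 in WT glands at 2 weeks, and 6.76 to 12.6 in Cip2a-/- and 6.31 to 10.1 in WT untreated glands. WT endpoint library 1, almost without epithelial RNA, had a ratio of 289. The part of epithelial content in the Mycl result was not tested.

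None of the other 36 genes was called between endpoint and untreated glands. At an unadjusted p under 0.05, 11 genes (29.7%) were higher at the endpoint than untreated and 0 were lower, against 9.51% and 7.4% of all genes. Of the 37 values 28 were positive (75.7%, against 52.2%), and the median log2 fold change was 0.18, against 0.020 over all genes. Mycl apart, the largest were 0.43 ± 0.16 for Nop56 and 0.42 ± 0.17 for Ppan, and the lowest among genes over 5 CPM was -0.27 ± 0.18 for Odc1. Removing the trend on coding length and GC content moved the median of all genes tested in this comparison by over 0.1, to 0.12.

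At 2 weeks against untreated glands, 0 of the 37 genes were called by edgeR (where it called 0.0194% of all genes higher and 0.00646% lower, 0.0258% together) and 1, Mycl, by DESeq2, which called 57 of all genes higher and 31 lower. At an unadjusted p under 0.05, 1 gene was higher, Mycl, and 1 lower, Myc (2.70% each, against 3.4% and 3.16% of all genes). Mycl alone was higher in every 2-week library than in every untreated library (2.70%, against 0.711% of all genes). Myc had 15.9, 31.1 and 26.2 CPM in Cip2a-/- and 32.5, 22.6 and 23.6 CPM in WT glands at 2 weeks, against 18.1, 106.5 and 53.5 CPM in Cip2a-/- and 29.0, 39.6 and 39.2 CPM in WT untreated glands. The highest untreated value, Cip2a-/- library 2, was over 3 times the highest 2-week value, while the lowest untreated value lay within the 2-week range. The log2 fold change of Myc was -0.87 ± 0.37 (adjusted p = 0.739, edgeR), and -0.50 without that Cip2a-/- library 2. The 37 genes had 27 negative log2 fold changes (73.0%, against 50.1% of all genes), with a median of -0.072, against -0.00049 over all genes tested (-0.15 to -0.028 when any 1 library was left out). This comparison and the one of endpoint glands with 2-week glands share the 2-week libraries, so that their values are not independent of each other.

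Loss of Cip2a gave no call among the 37 genes in any condition. The number called was 0 in untreated, 2-week and endpoint glands and in the average over the conditions, with edgeR and with DESeq2 alike, where edgeR called 0%, 0.00646%, 0.00646% and 0.00646% of all genes, the called gene being Cip2a itself, and DESeq2 called 6, 3, 88 and 3 genes. The interaction of genotype with DMBA was likewise called for 0 of the 37 genes at 2 weeks and at the endpoint, and for 0% of all genes. The fold changes of the group nevertheless lay on different sides of 0 by condition, 30 of 37 being positive untreated, 28 at 2 weeks and 4 at the endpoint.

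In untreated glands the median log2 fold change of Cip2a-/- against WT was 0.14, against 0.038 over all genes, with 30 positive values (81.1%, against 55.6%). The median was 0.056 without Cip2a-/- untreated library 2 (0.017 over all genes) and 0.24 without Cip2a-/- untreated library 1, and it was also under 0.1 without WT library 2, WT library 3 or Cip2a-/- library 3. At an unadjusted p under 0.05 no gene of the 37 was higher or lower, against 1.72% and 0.549% of all genes. Wdr43 was the only gene higher in every Cip2a-/- library (2.70%, against 5.94% of all genes), with 41.7, 50.9 and 56.0 CPM in Cip2a-/- and 39.2, 40.9 and 37.2 CPM in WT untreated glands. Myc had the most positive value, 0.72 ± 0.52, which rested on Cip2a-/- untreated library 2: without it the value was -0.0075. Nop58 (0.52 ± 0.29) and Npm1 (0.46 ± 0.24) followed, and at the other end were Rrp9 (-0.093 ± 0.20), Mrto4 (-0.091 ± 0.17) and Odc1 (-0.057 ± 0.25). The Cip2a-/- untreated glands differed widely from each other. The mean over the 37 genes of the centred log2 CPM was -0.31, 0.23 and 0.13 in Cip2a-/- untreated glands and 0.0097, -0.20 and -0.17 in WT untreated glands. Cell cycle markers summed to 68.7, 319 and 373 CPM in the same Cip2a-/- glands and 159, 105 and 82.2 CPM in the WT glands, so that within the untreated group the gland lowest in cell cycle markers was also lowest for the 37 genes. Other tissue differed as well: Cip2a-/- untreated library 3 had epidermis markers at 215.5 CPM, against at most 17.2 CPM in any other of the 18 libraries. It also had the highest untreated sums of B cell (708.8 CPM), T cell (418.1 CPM) and lymph node stroma markers (290.7 CPM). The part of cycling cells and of these tissues in the values was not tested.

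At 2 weeks the median log2 fold change was 0.12, against 0.042 over all genes, and 28 genes were positive (75.7%, against 55.8%). The median was 0.033 without WT 2-week library 2, under that of all genes in the same fit (0.054), 0.22 without WT 2-week library 3 and 0.073 without Cip2a-/- 2-week library 3. Again 0 genes lay under an unadjusted p of 0.05 in either direction, against 1.34% of all genes higher and 1.09% lower. Wdr12 and Eif5a were higher in every Cip2a-/- library (5.41%, against 6.76% of all genes). Wdr12 had 22.5, 19.8 and 21.6 CPM in Cip2a-/- and 19.0, 14.7 and 18.7 CPM in WT glands. Eif5a had 445, 419 and 426 CPM in Cip2a-/- and 308, 366 and 407 CPM in WT glands. Rrp12 had the most positive value, 0.59 ± 0.32, followed by Srm, the spermidine synthase gene (0.40 ± 0.27), and Ppat, the first enzyme of purine synthesis (0.38 ± 0.31). Rrp12 had 35.9, 20.7 and 23.0 CPM in Cip2a-/- and 14.98, 12.4 and 25.6 CPM in WT glands, and Ppat 21.5, 10.96 and 10.3 CPM in Cip2a-/- and 10.6, 10.2 and 12.0 CPM in WT glands. The first of these Cip2a-/- glands was that with the most muscle marker RNA, and without it the log2 fold changes were 0.33 for Rrp12 and -0.028 for Ppat. Mycl (-0.60 ± 0.50), Cad, the enzyme that starts pyrimidine synthesis (-0.29 ± 0.26), and Max (-0.19 ± 0.19) were the most negative of the genes over 5 CPM. They were at -0.19 for Mycl and -0.11 for Cad without WT 2-week library 3 and -0.028 for Max without Cip2a-/- 2-week library 1. That WT library 3 had the highest epithelial marker sum at 2 weeks, 2894 CPM. Between the genotypes, 1 of 8 epithelial markers was positive (median -0.75). All 8 B cell (4.54), all 8 T cell (1.83) and all 8 muscle markers (2.89) were positive, none of these markers called. The part of these cell types was not tested.

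**Figure D4:**
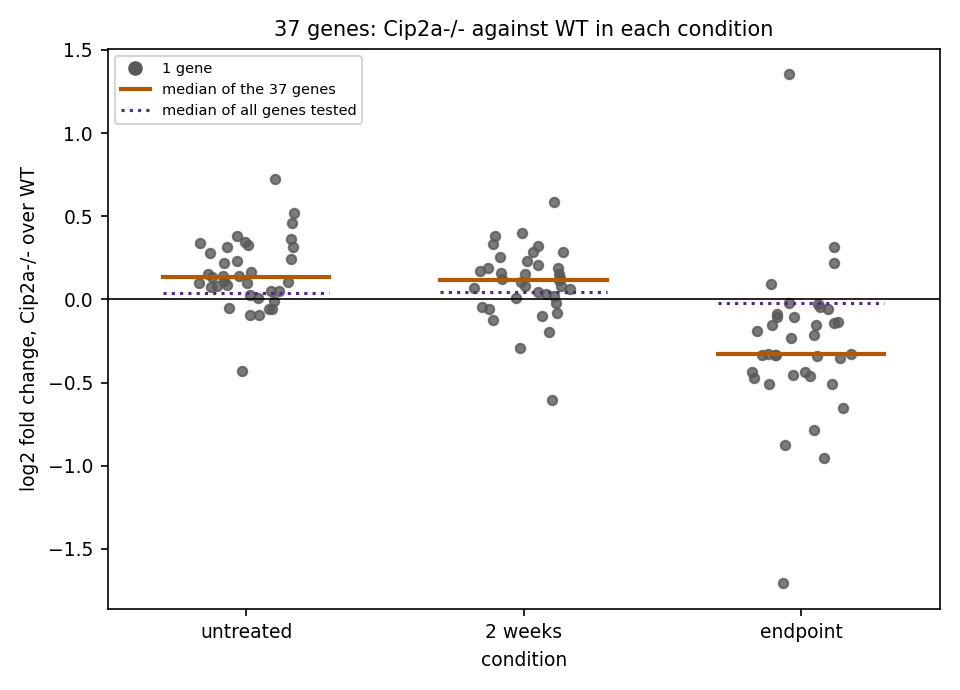
Log2 fold change of Cip2a-/- over WT for each of the 37 genes (points, spread sideways for view) in untreated, 2-week and endpoint glands, with the median of the 37 genes (solid bar) and of all genes tested (dotted bar). The medians of the 37 genes are 0.14, 0.12 and -0.33 and no point passed the test.

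At the endpoint the 37 genes lay mostly lower in Cip2a-/- than in WT glands without any passing the test. The median log2 fold change was -0.33, against -0.024 over all genes, and 33 genes were negative (89.2%, against 52.3%). At an unadjusted p under 0.05, 10 genes were lower (27.0%, against 6.67% of all genes) and 1, Mycl, was higher (2.70%, against 4.05%). In all, 9 genes (24.3%, against 3.02% of all genes) were lower in every Cip2a-/- library than in every WT library. They were Mycn, Nolc1, Dkc1, Rrp9, Rrp12, Wdr12, Nop2, Odc1 and Ppat. Of these, Mycn was near the detection limit, at most 0.645 CPM in Cip2a-/- and at least 0.758 CPM in WT glands. Wdr12 was split by a narrow margin, 18.95 against 19.62 CPM. The smallest adjusted p among the 37 was 0.458. By role the medians were -0.33 for the nucleolar particles, -0.17 for rRNA transcription and small subunit processing, -0.16 for large subunit assembly, -0.34 for translation initiation and -0.49 for nucleotide and polyamine synthesis, with 1 positive value, Rrs1, in these 5 groups.

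Odc1 had 34.6, 42.1 and 28.5 CPM in Cip2a-/- endpoint glands and 79.3, 43.6 and 80.8 CPM in WT endpoint glands. All Cip2a-/- glands were below the WT glands, WT library 2 being close to them, and the log2 fold change was -0.95 ± 0.25 (adjusted p = 0.458, edgeR). Rrp12 had 20, 15.5 and 12.3 CPM in Cip2a-/- and 39.7, 23.5 and 24.3 CPM in WT glands (-0.87 ± 0.32), and Ppat had 9.63, 9.03 and 8.35 CPM in Cip2a-/- and 21.2, 14.5 and 10.8 CPM in WT glands (-0.78 ± 0.31). WT endpoint library 1 gave the highest value of both genes, and without it the log2 fold changes were -0.61 for Rrp12 and -0.52 for Ppat. In all 18 libraries the highest Rrp12 value, 39.7 CPM, and the second-highest, 35.9 CPM, were in WT endpoint library 1 and Cip2a-/- 2-week library 1, and the 2 highest Ppat values, 21.2 and 21.5 CPM, were in the same libraries, which also led in muscle markers. Whether muscle RNA contributes to these values was not tested.

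On the other side, Mycl had 67.5, 39.98 and 78.2 CPM in Cip2a-/- endpoint glands, against 8.17, 49.4 and 14.8 CPM in WT endpoint glands, a log2 fold change of 1.35 ± 0.50 that was not called. It was 0.91 without WT endpoint library 1 and 2.43 without WT endpoint library 2, where its adjusted p was 0.0534 (edgeR). Max had 0.32 ± 0.19, or 0.031 without Cip2a-/- endpoint library 3. Mxd4 had 0.22 ± 0.17, with the opposite sign, -0.011, without WT endpoint library 1. Myc had -0.33 ± 0.52. Cell cycle markers summed to 166, 74.2 and 204 CPM in Cip2a-/- endpoint glands and 308, 251 and 201 CPM in WT endpoint glands, with 0 of 10 markers positive and 0 called. The mean centred log2 CPM of the 37 genes was 0.15, -0.097 and 0.0042 in the Cip2a-/- and 0.30, 0.37 and 0.17 in the WT glands, so that the groups differ the same way in both measures while the order of single libraries is not the same. Other markers moved too, none of them called: 0 of 8 B cell (median log2 fold change -5.27), 0 of 8 T cell (-3.95), 0 of 6 brown fat (-3.39) and 0 of 8 muscle markers (-6.62) were positive, against 8 of 8 epithelial (0.95) and 6 of 6 endothelial markers (0.43). T cell markers summed to 14.7 to 28.8 CPM in Cip2a-/- and 19.0 to 775 CPM in WT endpoint glands, and brown fat markers to 75.0 to 210.4 CPM in Cip2a-/- and 30.5 to 8461 CPM in WT endpoint glands, with WT library 1 the highest in both. The part of these cell types was not tested. The median of the 37 genes was -0.29 without WT endpoint library 1, -0.17 without WT endpoint library 2 and -0.14 without Cip2a-/- endpoint library 2.

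**Figure D5:**
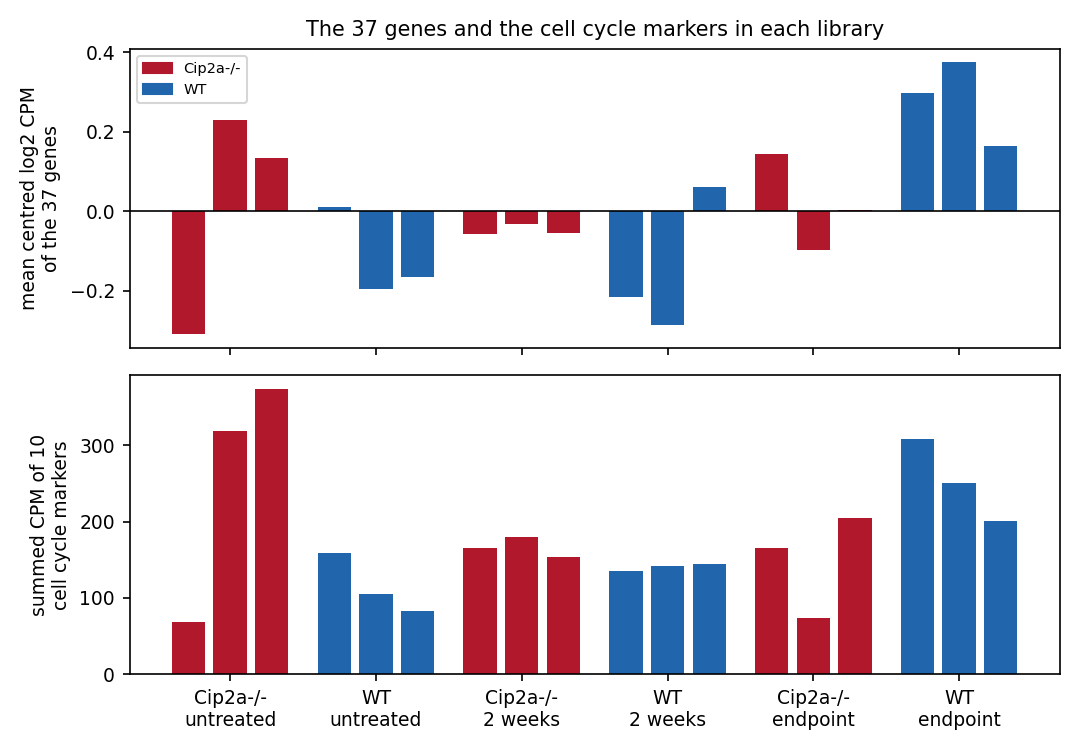
For each library, the mean centred log2 CPM of the 37 genes (top, zero line drawn) and the summed CPM of 10 cell cycle markers (bottom); Cip2a-/- stands left of WT in each condition and bars within a group are libraries 1 to 3. Cip2a-/- untreated library 1 is the lowest of all 18 in both panels, and the WT endpoint libraries are the highest set in the upper panel.

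Tested directly, the change of the genotype difference between untreated and endpoint glands had a median log2 value of -0.43 over the 37 genes, against -0.065 over all genes, with 33 of 37 negative (89.2%, against 54.6%) and 7 genes at an unadjusted p under 0.05 and lower (18.9%, against 6.79%), none called. Among genes over 5 CPM the most negative were Ppat (-1.10 ± 0.44), Myc (-1.05 ± 0.74) and Rrp12 (-1.03 ± 0.45), and the most positive Mycl (1.04 ± 0.71), Max (0.37 ± 0.27) and Mxd4 (0.27 ± 0.24). Without Cip2a-/- untreated library 2 the Myc value was -0.32, and the Mycl value was 0.62 without WT endpoint library 1 and 2.11 without WT endpoint library 2. Max had 0.088 without Cip2a-/- endpoint library 3 and Mxd4 0.070 without WT endpoint library 1. At an unadjusted p under 0.05, 0 were higher, against 3.24% of all genes. Cell type markers shifted too in this comparison, none of them called. Positive were 0 of 10 cell cycle (median -2.24), 0 of 8 B cell (-6.01), 0 of 8 T cell (-4.85), 0 of 8 muscle (-5.68) and 0 of 6 brown fat markers (-4.84). On the other side were 8 of 8 epithelial (0.80), 6 of 6 endothelial (0.70) and 6 of 8 white fat markers (0.22). The part of these cell types was not tested. Between untreated and 2-week glands the same median was -0.014, against -0.011 over all genes, with 20 of 37 values negative (54.1%, against 50.9%), and it ran from -0.13 to 0.11 when any 1 library was left out. There 0 genes lay under an unadjusted p of 0.05, against 1.27% of all genes higher and 1.63% lower. The values for the endpoint and for 2 weeks share the untreated libraries. Averaged over the conditions, the median log2 fold change of Cip2a-/- against WT was 0.018, against 0.014 over all genes, with 23 genes positive (62.2%, against 54.3%), and it ran from -0.044 to 0.047 when any 1 library was left out. The 1 gene at an unadjusted p under 0.05 was Mycn, lower in Cip2a-/- glands (-0.75 ± 0.30; 2.70% of the 37, where 0.342% of all genes were lower and 0.575% higher), where its level was 0.166 to 2.19 CPM, against 0.758 to 2.28 CPM in WT glands.

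The wider pathway was read from 127 other genes in 5 lists, of which 126 were tested. At the endpoint against 2 weeks 20 of them had risen (15.9%, against 6.41% of all genes) and 7 had fallen (5.56%, against 6.94%), with a median log2 fold change of 0.15, against 0.049, and in every other comparison 0 were called. Of 19 genes of the Myc network 4 rose (21.1%): Zbtb17, which encodes the Myc partner Miz-1 (0.61 ± 0.16), the helicase gene Ruvbl2 (0.50 ± 0.11), Wdr5, a chromatin anchor of Myc (0.43 ± 0.093), and the acetyltransferase gene Kat5 (0.32 ± 0.081). Of 51 genes of rRNA transcription and processing 10 rose (19.6%), from Surf6 (0.34 ± 0.094) to the box H/ACA protein gene Gar1 (0.72 ± 0.17), among them the RNA polymerase I subunit gene Polr1c (0.37 ± 0.11) and the polymerase I initiation factor gene Taf1c (0.56 ± 0.12). In the same list 3 fell (5.88%), Utp20 (-0.52 ± 0.15), Gnl3l (-0.44 ± 0.14) and Dhx33 (-0.33 ± 0.098). Of 20 translation factors 6 rose, including Eif4b (0.51 ± 0.14), and Eif3a fell (-0.53 ± 0.13). Of 16 chaperonin and nuclear transport genes 0 rose, and the exportin gene Xpo1 (-0.69 ± 0.19), the importin gene Kpnb1 (-0.40 ± 0.099) and Cct6a (-0.43 ± 0.12) fell (18.8%). None of the 20 tested genes of nucleotide and one-carbon synthesis was called. In Cip2a-/- against WT glands, 102 of the 126 were positive untreated (81.0%, against 55.6% of all genes), 102 at 2 weeks (81.0%, against 55.8%) and 26 at the endpoint (20.6%, against 47.6%), with medians of 0.12, 0.12 and -0.15.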

How the data were processed

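Per the file headers, the deposited table gives unnormalised counts of reads for every symbol and library. Libraries were stranded poly(A) RNA-seq, per the labels' protocols, and the submitters' processing notes name bcl2fastq 2.17, STAR 2.5.2b, Subread 1.5.1 and mm10. The strand setting and the handling of reads with several matches were not stated. The filter filterByExpr (count 10, total 15) passed 15482 genes, which were tested with edgeR 4.0.16 in R 4.3.3: TMM scaling, 1 term per group over all 18 libraries, the quasi-likelihood F-test, and Benjamini-Hochberg adjustment over all genes, with calls at 0.05. DESeq2 1.42.0 was an alternative. CPM uses TMM-scaled totals, and log2 CPM a prior count of 2. Intervals are SE of the fit. Genes, lists and tests were chosen with earlier results of these data known, so a comparison of the 37 genes with all genes is not independent of that choice. Values per library are given for the Myc family, called genes and, in each comparison, the 3 most positive and 3 most negative genes of at least 5 CPM. Removing the trend on coding length and GC content (95.2% of genes had both) and leaving out 2 libraries together were added after seeing the data. Mycl was matched by a synonym and the other 36 genes by symbol.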

Additional observations from a re-analysis of the deposited data

Results flagged for a closer look

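Wdr12, a protein of the PeBoW complex, lay on opposite sides of 0 by condition. Its log2 fold change of Cip2a-/- against WT was 0.29 at 2 weeks, with every Cip2a-/- library above every WT library, and -0.34 at the endpoint, with every Cip2a-/- library below every WT library. At 2 weeks the lowest Cip2a-/- value was 19.81 CPM and the highest WT value 18.97 CPM. At the endpoint the highest Cip2a-/- value was 18.95 CPM and the lowest WT value 19.62 CPM. Of all genes tested, 6.76% were higher in every Cip2a-/- library at 2 weeks and 3.02% lower in every one at the endpoint. Wdr12 was picked from the genes described here for this pattern, and how many of all genes show it was not counted. Neither value passed the test, and the difference between these conditions was not tested.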

How the results depend on the processing

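Of 316 recomputed counts and medians 299 stayed within the limits set. The number of genes higher at the endpoint than at 2 weeks was 14 with DESeq2, 4 without 2 libraries, and 2 to 10 over the fits that leave out 1 library. At the endpoint against untreated it was 0 with the compared groups only and 0 to 1 over the fits that leave out 1 library, and at 2 weeks against untreated 1 with DESeq2. The median log2 fold change of Cip2a-/- against WT at the endpoint was -0.34 to -0.14 over the fits that leave out 1 library. The cause of these shifts was not tested. With the replicate number as a block, 9 genes were called at the endpoint against 2 weeks, 8 of them shared, Fbl lost and Gnl3 added. Libraries of equal number were not alike as a rule: the correlation of their deviations ran from -0.47 to 0.66 over 45 pairs. The median was 0.00064, against -0.023 for pairs of unequal number. The correlation was over 0.1 in 17 of the 45 pairs, and such a median cannot show whether single libraries were paired. Of 1081 recomputed values of single genes 1000 kept their direction and side of the threshold, 66 were weaker, 2 stronger and 13 changed sign, all of them uncalled. In Cip2a-/- against WT, the values over the fits that leave out 1 library ran, untreated, from -0.22 to 0.014 for Mrto4, -0.0075 to 1.12 for Myc, -0.19 to 0.11 for Odc1 and -0.30 to 0.075 for Rrp9. They ran from -0.028 to 0.55 for Ppat at 2 weeks (-0.055 without 2 libraries) and from -0.011 to 0.46 for Mxd4 at the endpoint. Against untreated they ran from -0.0021 to 0.18 for Rrs1 at 2 weeks and from -0.27 to 0.025 for Ppat at the endpoint, where, with the length and GC trend removed, Ppat had 0.041 and Dkc1 0.015. With 3 libraries a group, 1 gland can decide a value, and WT endpoint library 1 stood apart in tissue content.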
